A study of Homo sapiens with 18 samples.

Results

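The response of 1 pancreatic cancer cell line, MiaPaCa2, to the drug THZ1 was followed across all genes of a deposited expression table. MiaPaCa2 is an established line from a human pancreatic ductal adenocarcinoma. The table holds 18 libraries, of which the 6 labelled MiaPaCa2 were taken: 3 from cells given 100 nM THZ1 for 6 h and 3 from cells given the solvent DMSO for 6 h. All 6 came from cells grown in the same medium, F12 with fetal bovine serum, β-glycerophosphate, ascorbic acid and antibiotics. The other 12 libraries are BxPC3 and PANC1 cells under the same 2 conditions. They entered the fit, where they share the estimate of spread. The table has 17026 rows for genes and 38 rows for ERCC transcripts, synthetic RNAs that were added to the extracted total RNA as a reference. The labels call the replicates biological triplicates and do not say whether the cultures were set up separately, so the p-values measure the spread between libraries of cultured cells.

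THZ1 binds covalently to CDK7, and at higher exposure also to CDK12 and CDK13. CDK7, with cyclin H (CCNH) and MNAT1, is the kinase of the general factor TFIIH and phosphorylates the repeated tail of the largest RNA polymerase II subunit as transcription starts. It also activates the cell cycle CDKs. When synthesis of mRNA slows, transcripts with a short half-life are lost first, and long-lived transcripts take a larger share of what remains. A treatment of this kind can therefore change the amount of mRNA as a whole, which makes the scale of the values part of the measurement.

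The labelled line was checked against markers. With DMSO the simple epithelial keratins KRT8 (mean 1424) and KRT18 (260.3) and the mesenchymal filament vimentin (VIM, 1413) were high, KRT19 was at 60.7, and E-cadherin (CDH1, 0.179) and KRT7 (0.915) were near 0. Of the markers of other cell types, 0 of 5 leukocyte genes, 5 of 8 fibroblast genes and 1 of 4 endothelial genes were in the table. The epithelial marker EPCAM and the mesenchymal marker CDH2 had no row either. Every gene row has at least 1 read in each of the 18 libraries, so a missing row does not describe MiaPaCa2 alone and cannot check the label. The fibroblast collagens COL1A2 (50.2) and COL3A1 (120.2) were present in all 3 DMSO libraries.

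Values are printed on the deposited scale, multiplied by 1 constant so that the mean of the 18 libraries sums to 1e+06. They are read-based and not corrected for gene length, so levels are compared within a gene. The 3 DMSO libraries held 14275582 to 20910423 recovered reads and the 3 THZ1 libraries 12556005 to 14681091. A log2 change is THZ1 minus DMSO on log2(value + 1), which understates the change of low genes. A second scale divided each library by its summed ERCC value. The summed ERCC values were 1923, 1745 and 1709 with DMSO and 5398, 3890.0 and 4036 with THZ1. The 3 THZ1 libraries thus lay above the 3 DMSO libraries, by 1.30 on the log2 scale (SE 0.158; exact two-sided permutation test p = 0.1, the smallest p this design can give). The summed gene values also lay higher with THZ1 on the deposited scale, by 0.65. Against them the ERCC difference was 0.645, as gene reads per ERCC read fell from a mean of 470 with DMSO to 303 with THZ1. Each of the 38 transcripts had a higher mean in the THZ1 libraries. The deposited scale nearly equalised the medians of the gene values, which were 15.0 ± 0.0402 with DMSO and 14.6 ± 0.0145 with THZ1. How much RNA and ERCC went into each library is not given in the sources used here, and fewer cells and less mRNA per cell cannot be told apart in bulk RNA. In what follows each log2 change on the deposited scale is followed by that on the ERCC scale in square brackets, and a gene is called, on the deposited scale unless the ERCC scale is named, where the adjusted p of the limma fit over all 15354 tested genes was under 0.05.

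On the deposited scale 5598 of the 15354 genes (36.5%) were called higher and 3042 (19.8%) lower, 56.3% in either direction. The median log2 change of all tested genes was 0.19 [-0.85]. On the ERCC scale 226 genes (1.47%) were called higher and 11223 (73.1%) lower, 74.6% in either direction. All 3042 genes lower as deposited were also called lower on the ERCC scale, and all 226 genes higher on the ERCC scale were also called higher as deposited. Of the 5598 genes higher as deposited, 2852 were called lower on the ERCC scale and 2520 were not called there. A rise is relative to the other mRNAs of the library unless the bracketed value was called higher too. Here and below, 2-fold means a log2 change of at least 1 in either direction on log2(value + 1). A change of that size was called for 1185 higher and 922 lower genes as deposited, and for 75 higher and 6387 lower genes on the ERCC scale. THZ1 and DMSO libraries did not overlap for 11327 genes (73.8%). All counts for gene lists below are to be read beside the shares of all genes, 36.5% higher and 19.8% lower. A list can therefore hold calls in both directions without differing from all genes.

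**Figure D1:**
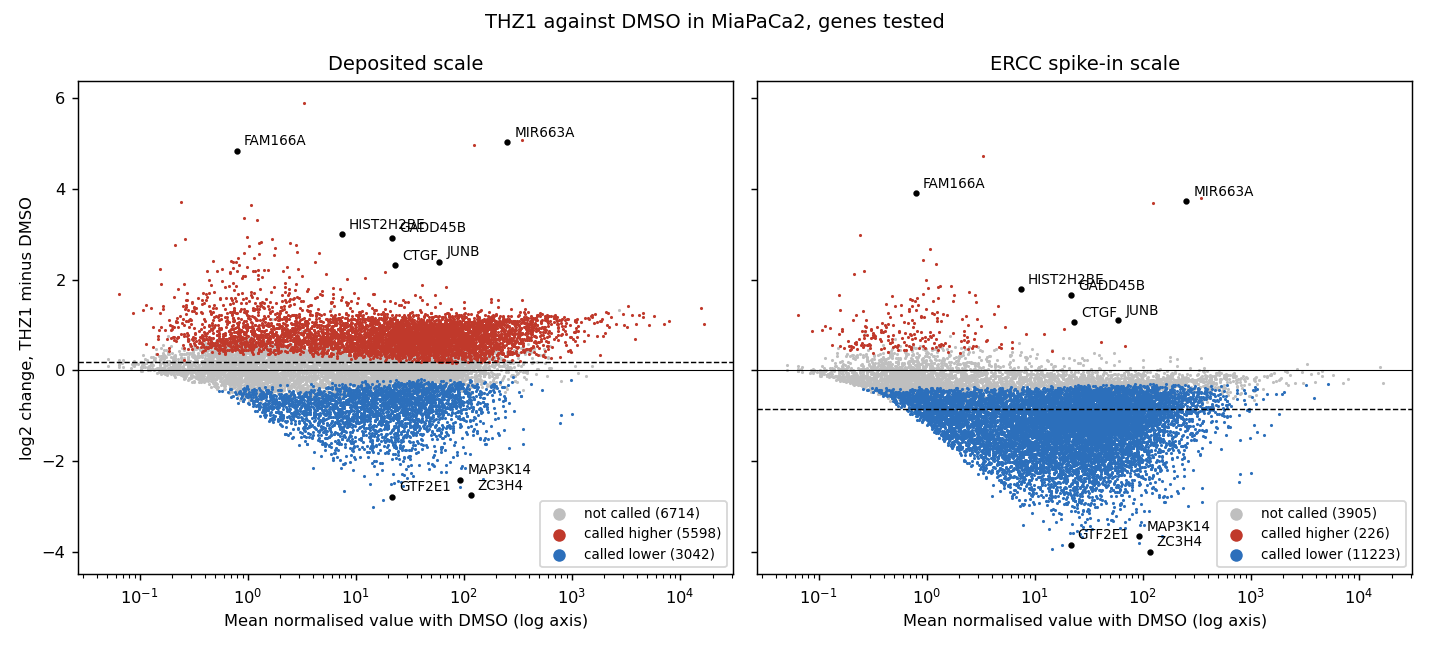
Log2 change of every tested gene (vertical axis) against its mean normalised value with DMSO (horizontal log axis), on the deposited scale (left) and the ERCC scale (right); the dashed line is the median of all genes. The cloud moves down between the panels, from a median of 0.19 to -0.85, and 226 genes remain called higher on the right. Genes of low level move less, because the log2 change is taken on value + 1.

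Among called genes whose mean over the 6 libraries was 20 or more, whose groups did not overlap and whose change was 2-fold or larger, ZC3H4 and PPP1R10 had the lowest log2 changes, and both act at the end of transcription. Some genes with a lower mean had log2 changes further from 0. ZC3H4, which with its partner WDR82 ends transcription of short and unproductive RNAs, had values of 122, 112 and 111 with DMSO and 17.6, 14.3 and 16.9 with THZ1. PPP1R10 (PNUTS), which targets the phosphatase PP1 to chromatin and takes part in termination, had values of 100.3, 89.8 and 85.0 with DMSO and 12.8, 15.4 and 15.4 with THZ1. Every THZ1 library of both genes lay far below every DMSO library. The log2 changes were -2.76 [-4.002] for ZC3H4 (SE 0.0842, adjusted p 3.46e-12) and -2.58 [-3.82] for PPP1R10 (SE 0.118, adjusted p 2.25e-10).

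MAP3K14 (NIK), the kinase that starts the non-canonical NF-kB pathway, had values of 96.6, 89.8 and 91.2 with DMSO and 18.2, 16.2 and 15.4 with THZ1. KIF18B, a kinesin that shortens astral microtubules in mitosis, had values of 156, 147 and 152 with DMSO and 29.04, 28.3 and 26.6 with THZ1. CMTR2, which methylates the second nucleotide of the mRNA cap structure, had values of 30.7, 36.2 and 35.7 with DMSO and 5.13, 5.71 and 7.26 with THZ1. The groups were apart in all 3 genes, with log2 changes of -2.41 [-3.66], -2.40 [-3.66] and -2.33 [-3.50]. The remaining genes among the 12 largest falls were the cohesin loader MAU2 at -2.26 [-3.48], the zinc finger genes ZNF142 at -2.18 [-3.39] and ZNF609 at -2.15 [-3.40], the transcription-coupled repair factor ERCC6 (CSB) at -2.15 [-3.41], CASP8AP2 (FLASH), needed for histone mRNA processing, at -2.11 [-3.34], FAM83G at -2.10 [-3.36], and the row RP11_284F21_10 at -2.25 [-3.49]. Adjusted p-values of the 12 falls lay between 3.46e-12 (ZC3H4) and 5.43e-07 (CMTR2).

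The 12 highest log2 changes by the same rule were of several kinds. The rows MIR3648, MIR663A, MIR3687 and RNA5_8SP6 lie in or resemble ribosomal RNA precursors, so that a read counted there need not come from the named gene. MIR663A had values of 245, 256 and 252 with DMSO and 8437, 8793 and 7434 with THZ1, and MIR3648 had values of 346, 352 and 328 with DMSO and 12216, 12461 and 10291 with THZ1. Both rose in all 3 THZ1 libraries, by 5.03 [3.73] and 5.08 [3.79] on the log2 scale. The 4 rows together took 0.0855% ± 0.00205 of the reads with DMSO and 1.82% ± 0.175 with THZ1. The mature miRNAs, matched by name, are printed as RefSeq gives them (GRCh38.p14), with the seed, bases 2 to 8, in capitals, because their base composition stands out: 90.9% of the bases of miR-663a (chr20:26208243-26208264, minus strand) and 81.0% of those of miR-3648 (chr21:8987026-8987046, plus strand) are G or C. A library of polyadenylated RNA does not measure the mature miRNA itself.
MIR663A: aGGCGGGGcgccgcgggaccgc
MIR3648-2: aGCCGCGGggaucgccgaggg

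Among protein-coding genes, FAM166A, HIST2H2BE, GADD45B, JUNB, CTGF, IER3, HCFC1R1 and SPSB2 led the rises, and all 8 were also called higher on the ERCC scale. FAM166A had values of 0.445, 0.916 and 1.00 with DMSO and 51.0, 45.8 and 52.4 with THZ1. GADD45B, a stress-induced growth arrest gene, had values of 20.997, 22.9 and 21.3 with DMSO and 179, 174 and 162 with THZ1. The rule required groups without overlap, and the log2 changes were 4.84 [3.91] for FAM166A and 2.93 [1.66] for GADD45B. HCFC1R1 changed by 2.04 [0.81] and SPSB2, a ubiquitin ligase adaptor, by 2.02 [0.81]. The plot of the 24 largest changes shows the spread within each group.

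**Figure D2:**
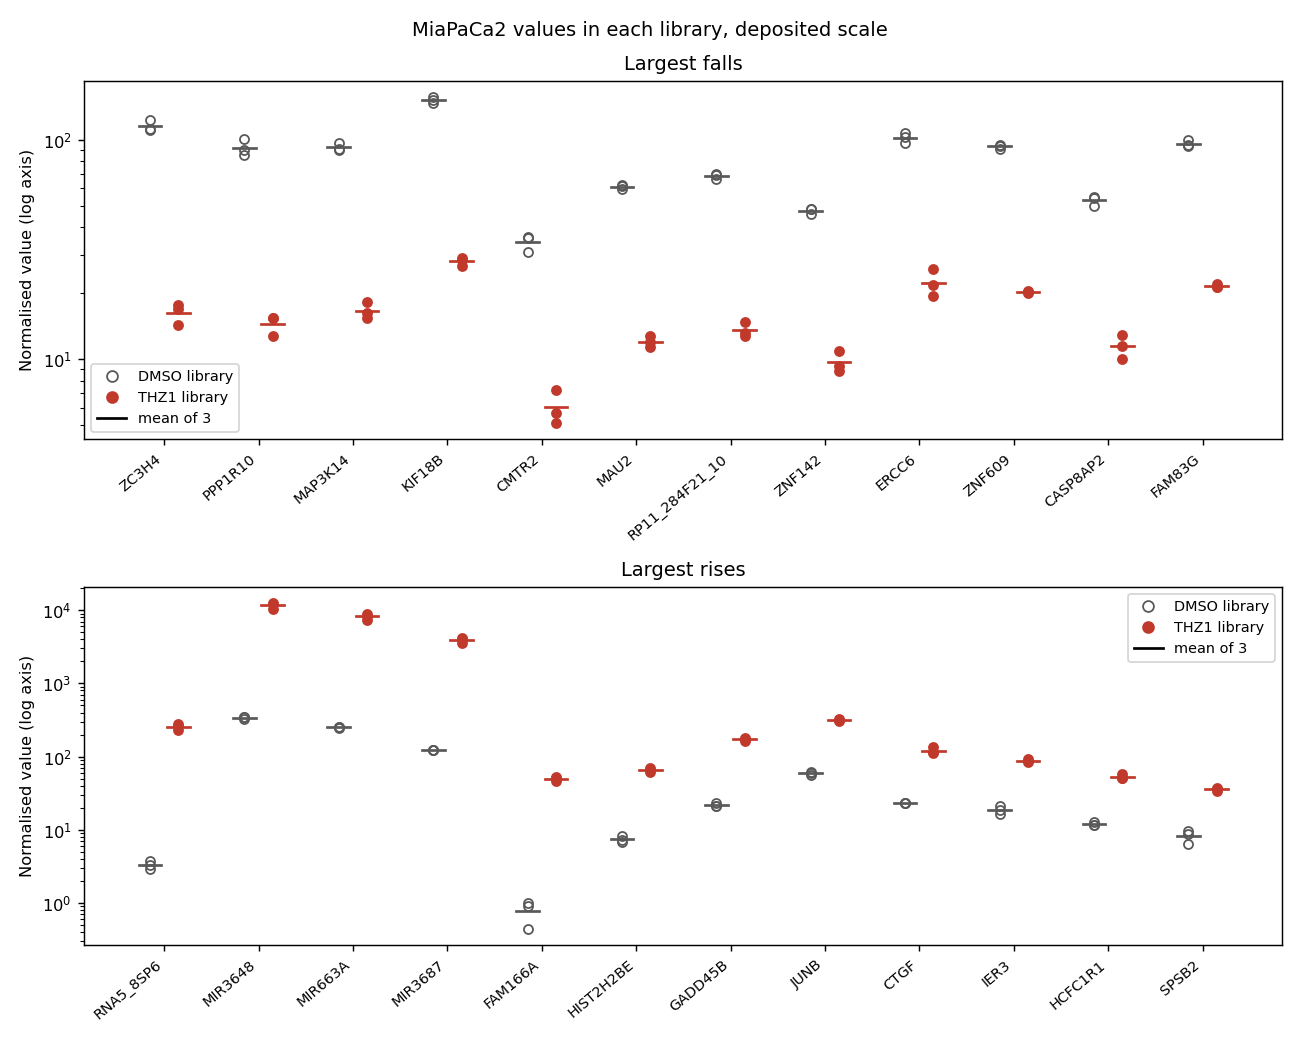
Normalised values (vertical log axis) of the 12 largest falls (top) and 12 largest rises (bottom) in each of the 6 MiaPaCa2 libraries; open circles are DMSO, filled circles THZ1, bars the means of 3. The rule that chose the 24 rows required groups without overlap, and ZC3H4, for example, lies between 111 and 122 with DMSO and between 14.3 and 17.6 with THZ1.

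The mRNA of the drug's target was not called changed as deposited. CDK7 had values of 43.5, 46.9 and 46.6 with DMSO and 46.3, 44.1 and 48.2 with THZ1, and the groups overlapped. Its log2 change was 0.016 [-1.25], with an adjusted p of 0.937 as deposited, and it was called lower on the ERCC scale. Of the partners of CDK7, CCNH rose by 0.34 [-0.93] and MNAT1 by 0.56 [-0.68]. CDK12, which sustains transcription of long genes, went from 202 ± 9.35 to 153 ± 3.73, a log2 change of -0.40 [-1.69]. CDK13 had 67.3 ± 1.40 with DMSO and 63.3 ± 4.88 with THZ1, and like CDK7 it was not called as deposited and was called lower on the ERCC scale (-0.089 [-1.36]). In the list of CDK7 and the other transcriptional CDKs with their partners, 10 of 20 tested members were called higher and 2 lower, with a median of 0.33 [-0.95]. The 7SK components that hold the elongation kinase P-TEFb inactive moved in opposite directions: HEXIM1 rose by 1.18 [-0.098] and MEPCE, which caps 7SK RNA, fell with a log2 change of -1.16 [-2.43].

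POLR2A, the polymerase II subunit whose tail CDK7 phosphorylates, had values of 362, 326 and 342 with DMSO and 1051, 984 and 990.4 with THZ1. The 3 THZ1 libraries were all higher, with a log2 change of 1.55 [0.26] (SE 0.0816, adjusted p 8.84e-10), which was not called on the ERCC scale. Among the RNA polymerase II subunits 9 of 12 tested members were called higher and 1 lower, with a median of 0.98 [-0.29]. POLR2F rose by 1.11 [-0.16] and POLR2J by 1.11 [-0.15], and POLR2D, part of the stalk of the enzyme, fell with a log2 change of -0.86 [-2.12].

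The general transcription factors gave 15 higher and 9 lower of 29, median 0.23 [-1.02], beside 36.5% higher and 19.8% lower among all genes. GTF2E1, the large subunit of TFIIE, had values of 20.997, 22.5 and 20.7 with DMSO and 2.47, 2.05 and 2.21 with THZ1. Its THZ1 libraries held 21 to 27 recovered reads, and its log2 change was -2.79 [-3.84] (SE 0.146, adjusted p 8.55e-10). GTF2A1 fell with a log2 change of -0.95 [-2.21] and TAF8 with -0.81 [-2.03], while TAF10 rose by 1.04 [-0.23], TAF9B by 0.79 [-0.49] and GTF2B (TFIIB) by 0.78 [-0.46]. Of the TFIIH core, 2 higher and 3 lower of 6 were called. Among pausing and elongation factors 15 of 24 tested members were called higher and 2 lower, with a median of 0.46 [-0.81]. The bromodomain protein BRD2 rose by 1.17 [-0.12], the histone chaperone SSRP1 by 1.09 [-0.20] and the pausing factor SUPT5H by 0.95 [-0.34]. BRD3 and the elongation factor IWS1 fell with log2 changes of -0.82 [-2.07] and -0.92 [-2.19].

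Factors acting at the end of the transcript gave some of the steepest falls of the machinery. INTS5, a subunit of the Integrator complex that cleaves snRNAs and paused transcripts, had values of 30.8, 26.9 and 26.9 with DMSO and 4.58, 4.82 and 5.26 with THZ1. CSTF1, a subunit of the cleavage stimulation factor, had values of 33.1, 32.5 and 30.4 with DMSO and 7.24, 9.73 and 7.05 with THZ1. Neither gene's groups overlapped, and the log2 changes were -2.31 [-3.46] and -1.89 [-3.08]. CSTF2T followed at -1.36 [-2.58] and WDR33, which recognises the polyadenylation signal, at -1.10 [-2.38], whereas CPSF1 rose by 0.99 [-0.30], PABPN1 by 0.98 [-0.30] and NUDT21 by 0.94 [-0.35]. Cleavage and polyadenylation factors gave 7 higher and 8 lower of 19, median 0.012 [-1.24]. Integrator gave 4 higher and 3 lower of 13, median -0.10 [-1.35], so that INTS5 and INTS2 (-0.90 [-2.14]) stood beside INTS1 (0.82 [-0.47]) in the other direction. Among termination factors 8 of 18 tested members were called higher and 6 lower, with a median of 0.26 [-1.03]. SRRT (ARS2), which binds the cap-binding complex, rose by 1.55 [0.26].

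Mediator, which bridges activators and polymerase II, gave 8 higher and 8 lower of 30, median 0.11 [-1.03]. MED9 went from 15.5 ± 0.395 to 3.13 ± 0.267, a log2 change of -2.00 [-3.09], MED7 had -1.12 [-2.26] and MED22 -1.05 [-2.31], while MED24 rose by 0.79 [-0.49]. The cap enzymes and cap-binding proteins gave 4 higher and 2 lower of 12, median 0.21 [-1.03], with CMTR2 the only member below a log2 change of -1.

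Splicing factors were mostly higher relative to other mRNAs and lower on the ERCC scale. For core splicing factors 22 of 25 tested members were called higher and 0 lower, with a median of 0.86 [-0.43]. The Sm proteins SNRPD2 and SNRPG rose by 1.15 [-0.14] and 1.11 [-0.17]. SR proteins and their kinases gave 15 higher and 2 lower of 25, median 0.36 [-0.92]: the splicing regulator TRA2B rose by 1.19 [-0.097] and SRSF7 by 0.86 [-0.43], and the kinases CLK4 and CLK2, which phosphorylate SR proteins, fell with -0.87 [-2.05] and -0.63 [-1.90]. Histone methyl and acetyl enzymes gave 12 higher and 17 lower of 45, median -0.082 [-1.37]. The heterochromatin methyltransferase SUV39H1 went from 37.6 ± 1.53 to 11.7 ± 0.887, the H3K36 methyltransferase NSD1 from 238 ± 10.5 to 94.9 ± 3.25 and HDAC4 from 48.9 ± 1.15 to 22.8 ± 2.67, with log2 changes of -1.60 [-2.82], -1.32 [-2.60] and -1.07 [-2.33]. HDAC1 and the demethylase KDM1A rose by 1.10 [-0.20] and 0.93 [-0.36].

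**Figure D3:**
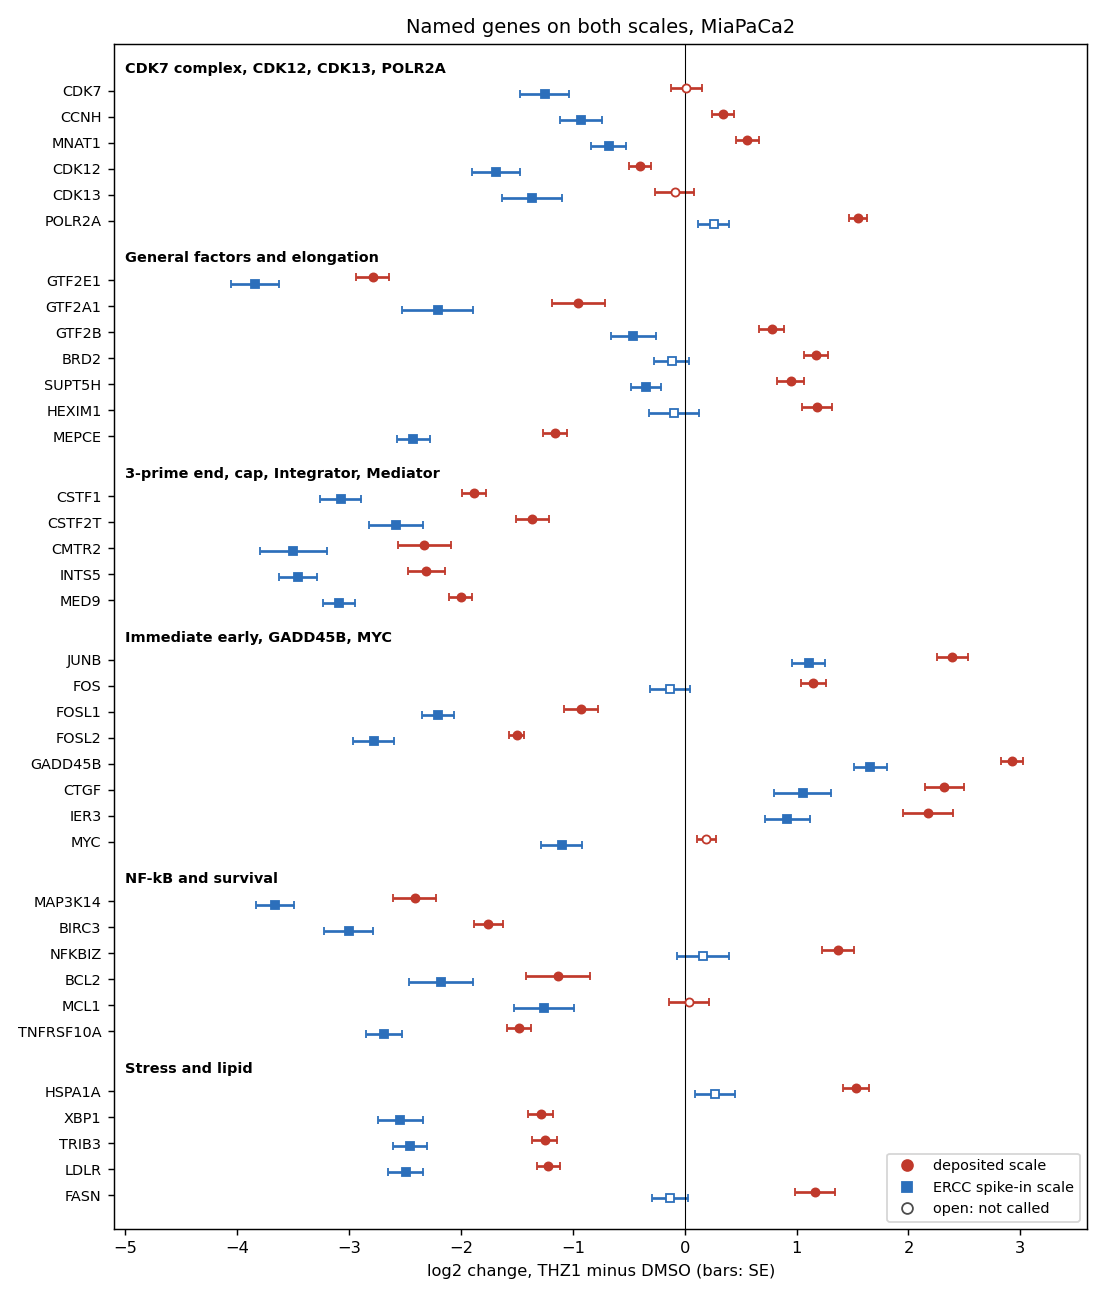
Log2 change, THZ1 minus DMSO, of named genes on the deposited scale (circles) and the ERCC scale (squares), with SE as bars and open symbols where a gene was not called. GTF2E1, CMTR2, INTS5, CSTF1 and MAP3K14 are called lower on both scales, JUNB, GADD45B, CTGF and IER3 are called higher on both, and POLR2A, BRD2 and HEXIM1 are called higher only on the deposited scale.

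The zinc finger genes named ZNF were the list with the lowest median. Of these mostly KRAB-domain repressors 26 of 418 tested members were called higher and 281 lower, with a median of -0.71 [-1.75]. They took 0.798% ± 0.0136 of the reads with DMSO and 0.352% ± 0.00978 with THZ1, and the 3 shares of each group did not overlap. ZNF133 had 13.7 ± 0.812 with DMSO and 1.57 ± 0.269 with THZ1, ZNF594 21.05 ± 2.06 with DMSO and 2.91 ± 0.631 with THZ1 and ZNF623 29.4 ± 1.25 with DMSO and 5.72 ± 0.907 with THZ1, with log2 changes of -2.52 [-3.50], -2.50 [-3.59] and -2.19 [-3.35]. The members that rose farthest were ZNF358 (1.01 [-0.17]), ZNF428 (0.97 [-0.25]) and ZNF219 (0.97 [-0.29]).

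The lists of housekeeping genes were mostly called higher as deposited, and none of their members was called higher on the ERCC scale. Cytosolic ribosomal protein genes gave 82 higher and 0 lower of 83, median 1.10 [-0.19], mitochondrially encoded mRNAs 13 higher and 0 lower of 13, median 1.19 [-0.11], and nuclear oxidative phosphorylation genes 70 higher and 0 lower of 77, median 0.99 [-0.27]. RPL29 rose by 1.28 [-0.011], COX6B1 by 1.25 [-0.038] and MT_CO3 by 1.27 [-0.022]. RPL7L1, a ribosome assembly factor placed in the list by its name (-0.13 [-1.42]), and NDUFV3 (-0.27 [-1.54]) were not called as deposited and were called lower on the ERCC scale. Mitochondrial mRNAs took 4.62% ± 0.114 of the reads with DMSO and 6.71% ± 0.234 with THZ1, and ribosomal protein mRNAs 4.69% ± 0.134 and 6.48% ± 0.204. Proteasome subunits gave 31 higher and 0 lower of 34, median 0.88 [-0.41], mitochondrial ribosomal proteins 59 higher and 1 lower of 76, median 0.58 [-0.63] and glycolysis with hypoxia genes 19 higher and 0 lower of 32, median 0.59 [-0.53]. Within the last list the enzymes GAPDH and ALDOA rose by 1.19 [-0.10] and 1.16 [-0.13], whereas the glucose transporter SLC2A1 (-0.096 [-1.37]) and hexokinase HK2 (-0.061 [-1.34]) were not called as deposited and were called lower on the ERCC scale. On that scale the members called lower were 6 of 83 cytosolic ribosomal protein genes, 0 of 13 mitochondrially encoded mRNAs, 12 of 77 oxidative phosphorylation genes, 18 of 34 proteasome subunits, 61 of 76 mitochondrial ribosomal proteins and 18 of 32 glycolysis and hypoxia genes, beside 73.1% of all genes.

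Replication-dependent histone genes had the highest median of the protein-coding lists on both scales. For these 41 of 43 tested members were called higher and 0 lower, with a median of 1.59 [0.64], and 22 of the 43 were called higher on the ERCC scale as well. The median of their DMSO means was 1.54, so most had little room to fall. At such levels log2(value + 1) also moves less between the scales. A member near 0 with DMSO, such as HIST1H3A (0.424, and 5.45 with THZ1), could enter the fit through its THZ1 libraries. HIST2H2BE had values of 6.88, 7.22 and 8.19 with DMSO and 66.6, 70.4 and 62.4 with THZ1, HIST1H2AG 3.36, 2.64 and 2.53 with DMSO and 21.6, 23.4 and 22.4 with THZ1. All THZ1 libraries were above all DMSO libraries, with log2 changes of 3.00 [1.78] and 2.62 [1.51]. These mRNAs normally end in a stem-loop without a poly(A) tail, so that a library of polyadenylated RNA catches few of them: together they took 0.0184% ± 0.000249 of the reads with DMSO and 0.0447% ± 0.00198 with THZ1. Their near-identical copies can share reads, and single members are uncertain for that reason. CASP8AP2, the processing factor named above, fell in the same libraries, and its part in the result was not tested.

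**Figure D4:**
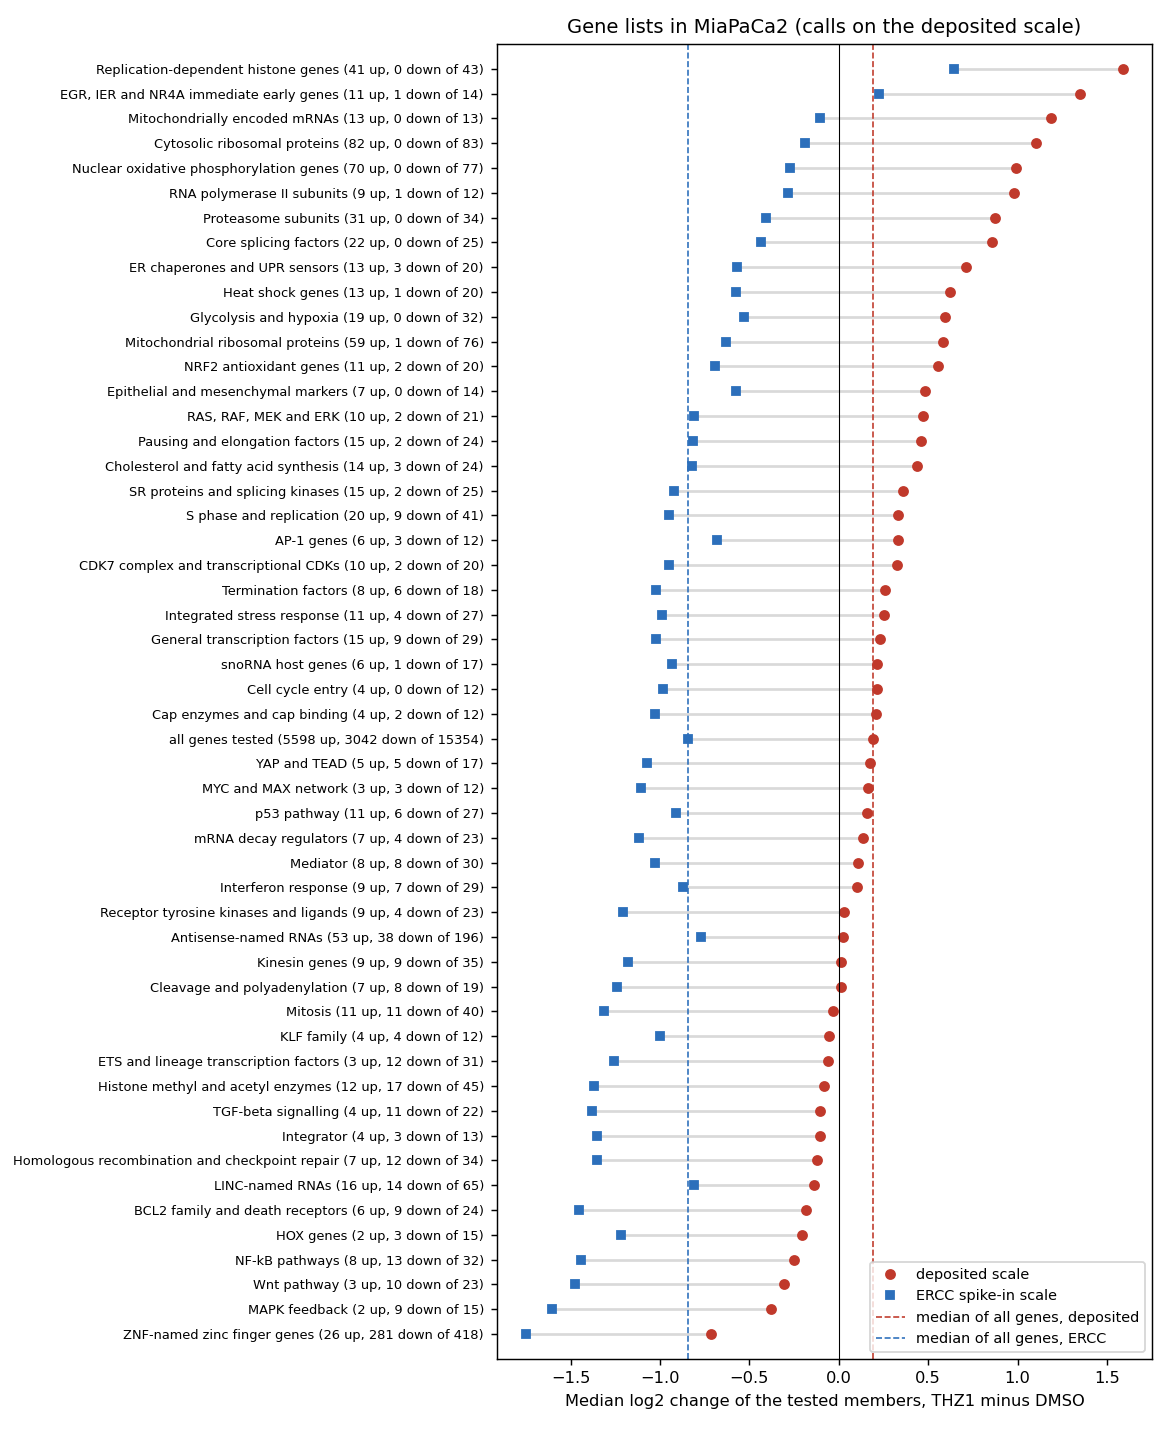
Median log2 change of the tested members of each gene list with at least 10 tested members, on the deposited scale (circles) and the ERCC scale (squares); dashed lines are the medians of all genes, and the labels count the calls on the deposited scale. Histone genes and immediate early genes are the lists with a median above 0 on both scales, and ZNF-named genes have the lowest median on both. The histone genes have a median DMSO mean of 1.54, a level at which log2(value + 1) moves less between the scales.

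Immediate early genes, which growth factors and stress switch on within minutes without new protein synthesis, were split by member. In the EGR, IER and NR4A list 11 of 14 tested members were called higher and 1 lower, with a median of 1.35 [0.23], and 4 were also called higher on the ERCC scale. CTGF, a matricellular target of YAP and SRF, had values of 23.5, 23.1 and 23.3 with DMSO and 116, 134 and 111 with THZ1. IER3, an anti-apoptotic early response gene, had values of 18.4, 16.7 and 21.1 with DMSO and 92.2, 87.9 and 83.2 with THZ1. The groups were apart in both, with log2 changes of 2.32 [1.05] and 2.18 [0.92]. IER5L rose by 1.65 [0.38], CYR61 by 0.48 [-0.81] and SRF by 0.34 [-0.94], and NR4A1 fell with a log2 change of -0.86 [-1.96].

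Of the AP-1 genes, 6 higher and 3 lower of 12 were called. JUNB had values of 60.1, 60.9 and 55.6 with DMSO and 324, 313 and 302 with THZ1, and FOS had values of 68.5, 90.2 and 78.6 with DMSO and 177, 185 and 166 with THZ1. Both rose without overlap, by 2.39 [1.11] and 1.15 [-0.13], and FOS was not called on the ERCC scale. The partner MAFK rose by 1.34 [0.093]. FOSL2 and FOSL1, relatives of FOS, went from 155 ± 4.76 to 54.2 ± 0.439 and from 168 ± 9.25 to 87.8 ± 6.26, and JUN from 187 ± 7.24 to 152 ± 6.66, with log2 changes of -1.50 [-2.78], -0.93 [-2.21] and -0.30 [-1.58].

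The stretch before the start site was read for the early genes JUNB, FOS, CTGF, GADD45B, EGR1 and IER2 and for the falls PPP1R10, ZC3H4 and CMTR2. It was searched for the TATA box, the element that places the start of transcription in many inducible genes. In RefSeq promoters (GRCh38.p14, 250 bases before to 50 after the start), the TATA box letters TATAAA, searched on both strands, occurred in 381 of 8017 promoters of tested protein-coding genes with a DMSO mean of at least 5 (4.75%). Of these genes 10 were called higher on the ERCC scale, and 5 of the 10 had TATAAA, each on the strand of the gene between 45 and 16 bases before the start, where 1.30% of all did. The 5 genes were JUNB, GADD45B, CTGF, the mRNA export factor NXF1 and the histone gene HIST2H2BE, and the 5 without TATAAA were FAM43A, MYLIP, SURF1, SPSB2 and HCFC1R1. Among genes at least 2-fold higher as deposited 54 of 533 (10.1%) had TATAAA, and among genes at least 2-fold lower 30 of 614 (4.89%). The level limit, the subset and the position were chosen after these values were seen, and no test was made. The 120 bases before the start are printed 5′ to 3′ with TATAAA in capitals, and with both CArG boxes, the binding letters of SRF, in capitals for EGR1. The regions are chr19:12791366-12791485, plus strand for JUNB, chr14:75278708-75278827, plus strand for FOS, chr6:131951373-131951492, minus strand for CTGF (now CCN2), chr19:2476007-2476126, plus strand for GADD45B, chr5:138465359-138465478, plus strand for EGR1, chr6:30617244-30617363, minus strand for PPP1R10 and chr19:47113777-47113896, minus strand for ZC3H4.
JUNB: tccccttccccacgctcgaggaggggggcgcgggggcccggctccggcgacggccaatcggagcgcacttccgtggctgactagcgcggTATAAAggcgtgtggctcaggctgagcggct
FOS: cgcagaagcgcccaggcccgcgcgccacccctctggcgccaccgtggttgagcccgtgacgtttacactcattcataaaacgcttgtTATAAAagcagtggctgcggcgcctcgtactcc
CCN2: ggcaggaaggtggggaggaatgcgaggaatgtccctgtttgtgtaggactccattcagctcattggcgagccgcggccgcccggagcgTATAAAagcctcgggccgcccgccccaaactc
GADD45B: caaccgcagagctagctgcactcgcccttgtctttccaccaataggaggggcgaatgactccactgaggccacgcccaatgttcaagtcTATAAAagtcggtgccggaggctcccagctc
EGR1: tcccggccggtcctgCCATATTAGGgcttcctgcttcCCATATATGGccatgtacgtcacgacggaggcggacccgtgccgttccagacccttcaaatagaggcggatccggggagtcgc
PPP1R10: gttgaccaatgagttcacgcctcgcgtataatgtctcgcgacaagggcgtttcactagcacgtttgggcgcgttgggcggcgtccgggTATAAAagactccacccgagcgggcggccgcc
ZC3H4: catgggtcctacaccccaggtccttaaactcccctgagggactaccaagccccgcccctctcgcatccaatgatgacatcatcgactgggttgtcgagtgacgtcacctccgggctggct

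In JUNB and GADD45B the letters began 31 bases before the start, in CCN2 and PPP1R10 32 bases and in FOS 33 bases. The EGR1 window held 2 CArG boxes, beginning 105 and 83 bases before the start, and no TATAAA. ZC3H4, IER2 and both annotated starts of CMTR2 had neither in the 120 bases, and only the first of these is printed. A TATA box thus stood before genes that rose and before PPP1R10, which fell, and was not found before IER2, ZC3H4 or CMTR2. EGR1 itself went from 178 ± 17.1 to 530.3 ± 31.2, a log2 change of 1.57 [0.28].

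Genes of the cell cycle were called in both directions, as were all tested genes (36.5% higher and 19.8% lower). Mitosis genes gave 11 higher and 11 lower of 40, median -0.03 [-1.32]: AURKA, the spindle pole kinase, went from 161 ± 1.74 to 62.9 ± 3.51 and ASPM from 353 ± 36.5 to 142 ± 14.7, with log2 changes of -1.34 [-2.62] and -1.30 [-2.59]. PTTG1 (securin) and CCNB2 rose by 0.81 [-0.48] and 0.75 [-0.53]. S phase genes gave 20 higher and 9 lower of 41, median 0.33 [-0.95]. The G1/S factor E2F2, the phosphatase CDC25A and the helicase loader MCM10 fell with -1.35 [-2.58], -1.04 [-2.29] and -0.96 [-2.23], and the helicase subunits MCM7 and MCM2 rose by 0.95 [-0.34] and 0.84 [-0.45]. Cell cycle entry genes gave 4 higher and 0 lower of 12, median 0.21 [-0.98], in which CDK4 rose by 0.89 [-0.39]. Cyclin D1 (CCND1, -0.26 [-1.55]) and CDKN1A (p21, -0.27 [-1.35]) were not called as deposited and were called lower on the ERCC scale. In limma fits of only the 6 MiaPaCa2 libraries and without PANC1 DMSO replicate 1, CCND1 was called lower as deposited (adjusted p 6.06e-05 and 5.33e-05). Recombination genes of the repair list included 4 higher and 9 lower of 18: PALB2, XRCC2 and BRCA2 had log2 changes of -1.67 [-2.81], -1.51 [-2.77] and -1.40 [-2.63]. Fanconi and checkpoint genes included 3 higher and 3 lower of 16.

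Genes of the MAP kinase pathway were called in both directions, beside 36.5% higher and 19.8% lower among all genes. The exchange factor SOS1, which loads RAS with GTP, went from 56.2 ± 2.39 to 19.0 ± 2.31, a log2 change of -1.52 [-2.77], and the scaffold SHOC2 fell with -0.62 [-1.87]. The kinases MAP2K2 (MEK2) and MAPK3 (ERK1) rose by 1.16 [-0.13] and 0.98 [-0.29]. The list of RAS, RAF, MEK and ERK gave 10 higher and 2 lower of 21, median 0.47 [-0.81]. The phosphatases and inhibitors that ERK induces against itself gave 2 higher and 9 lower of 15, median -0.38 [-1.61]. DUSP16, SPRY1 and DUSP7 had log2 changes of -1.42 [-2.52], -1.24 [-2.44] and -1.07 [-2.34], while DUSP2 rose by 1.10 [-0.14] and SPRY4 by 0.33 [-0.96]. Among receptor tyrosine kinases and ligands 9 of 23 tested members were called higher and 4 lower, with a median of 0.031 [-1.21]. EGFR went from 163 ± 5.64 to 97.3 ± 4.74 (-0.73 [-2.02]) and INSR from 49.5 ± 0.973 to 30.4 ± 3.56 (-0.69 [-1.95]), and FGFR3 rose by 0.83 [-0.44].

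Transcription factors of cancer and lineage were called in both directions, beside 36.5% higher and 19.8% lower among all genes. ETS and lineage factors gave 3 higher and 12 lower of 31, median -0.06 [-1.26]. GATA4, a factor of foregut endoderm, had values of 30.7, 27.4 and 27.9 with DMSO and 7.60, 8.30 and 7.58 with THZ1, without overlap and with a log2 change of -1.75 [-2.94]. ETS2 had a log2 change of -1.25 [-2.36] and the helix-loop-helix inhibitor ID3 -0.91 [-2.20], whereas the Notch target HES1 rose by 1.17 [-0.079] and STAT3 by 0.67 [-0.62]. MYC had values of 280.0, 275 and 266 with DMSO and 312, 320.0 and 306 with THZ1, with THZ1 libraries above DMSO libraries. Its change of 0.19 [-1.10] was not called as deposited (adjusted p 0.0685) in the limma fit, which shares its estimate of spread with the other lines. MYC was called lower on the ERCC scale. In its network, 3 higher and 3 lower of 12, median 0.17 [-1.11], the repressor MXD1 rose by 1.51 [0.33] and MGA fell with -1.23 [-2.50]. The KLF family gave 4 higher and 4 lower of 12, median -0.054 [-0.999], with KLF3 at -1.12 [-2.36], KLF2 at -0.91 [-2.19] and KLF6 at 0.68 [-0.61].

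Survival genes were called in both directions, beside 36.5% higher and 19.8% lower among all genes. The BCL2 family and death receptors gave 6 higher and 9 lower of 24, median -0.19 [-1.45]. MCL1, a short-lived anti-apoptotic protein and mRNA, had values of 454, 480.1 and 479.9 with DMSO and 464, 522 and 466 with THZ1. The groups overlapped, and MCL1 was not called as deposited (0.036 [-1.26]). BCL2, anti-apoptotic as well, went from 8.05 ± 1.01 to 3.18 ± 0.936 (-1.13 [-2.18]). On the other side, the death receptor TNFRSF10A and its adaptor FADD had log2 changes of -1.48 [-2.69] and -1.25 [-2.32], and the BH3-only genes BCL2L11 (BIM) and BBC3 (PUMA) rose by 0.97 [-0.29] and 0.87 [-0.31]. The decoy receptor TNFRSF10D, named here after its values were seen, rose on both scales, from 41.0 ± 1.25 to 155 ± 3.79 (1.89 [0.61]).

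The NF-kB list gave 8 higher and 13 lower of 32, median -0.25 [-1.44], and of its non-canonical members 0 higher and 5 lower of 11 were called. After MAP3K14, the next lowest of the whole list were BIRC3 (cIAP2) and TAB1, which the list counts as canonical. BIRC3 went from 66.5 ± 4.12 to 19.0 ± 1.04 and TAB1 from 26.8 ± 1.23 to 7.26 ± 0.582. The log2 changes were -1.76 [-3.005] and -1.75 [-2.93]. NFKBIZ rose by 1.37 [0.16] and the subunit NFKB1 by 0.54 [-0.74]. Of the cytokine and adhesion targets in the list, 2 higher and 3 lower of 6 were called: CXCL2 and CXCL3 rose by 1.17 [-0.062] and 1.11 [0.14], and IL8, LIF and ICAM1 had log2 changes of -1.09 [-2.37], -0.57 [-1.84] and -0.47 [-1.12]. CXCL3, IL8, LIF and ICAM1 were named after their values were seen. Interferon response genes gave 9 higher and 7 lower of 29, median 0.10 [-0.87]: IFIT5, IRF2 and IFIT3 had log2 changes of -1.65 [-2.80], -1.43 [-2.54] and -1.31 [-2.37], and IRF1, HLA_A and B2M, the last 2 parts of the class I antigen complex, rose by 1.08 [-0.19], 1.02 [-0.27] and 1.00 [-0.29].

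Of the TGF-beta and Wnt genes, feedback members were among the lowest log2 changes of the list. TGF-beta feedback genes and repressors included 1 higher and 7 lower of 10, and receptors and SMADs 3 higher and 4 lower of 12. The repressor TGIF2 and the SMAD inhibitor PMEPA1 had log2 changes of -1.70 [-2.89] and -1.54 [-2.77]. The Wnt list gave 3 higher and 10 lower of 23, median -0.30 [-1.48]. ZNRF3, which removes Frizzled receptors, and the scaffold AXIN1 had -1.45 [-2.66] and -1.15 [-2.41], and CTNNB1 (beta-catenin) and TCF7 rose by 0.93 [-0.36] and 1.01 [-0.23]. YAP and TEAD genes gave 5 higher and 5 lower of 17, median 0.17 [-1.07], with AJUBA and LATS2 at -0.99 [-2.21] and -0.73 [-1.99] and CTGF at the other end.

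Stress programmes were not called in 1 direction, and neither were all genes (36.5% higher and 19.8% lower). For heat shock genes 13 of 20 tested members were called higher and 1 lower, with a median of 0.62 [-0.58]. The inducible HSP70 genes HSPA1A and HSPA1B rose from 20.9 ± 2.36 to 62.0 ± 0.641 and from 23.1 ± 2.18 to 66.0 ± 5.35, by 1.53 [0.27] and 1.48 [0.22]. They are near-identical copies whose reads cannot be divided with certainty. The HSP40 gene DNAJB1 fell with -0.62 [-1.91]. ER chaperones and sensors of unfolded proteins gave 13 higher and 3 lower of 20, median 0.71 [-0.57]: the transcription factor XBP1 went from 62.9 ± 3.34 to 25.2 ± 0.999 (-1.29 [-2.54]) while the chaperones HYOU1 and PDIA6 rose by 1.01 [-0.28] and 0.97 [-0.32]. Of the integrated stress response, 8 higher and 3 lower of 18 targets were called, among them the pseudokinase TRIB3 at -1.25 [-2.46] and SHMT2 at 1.00 [-0.29]. NRF2 antioxidant genes gave 11 higher and 2 lower of 20, median 0.55 [-0.69], with OSGIN1 and KEAP1 at -1.34 [-2.49] and -0.84 [-2.11] and the ferritins FTL and FTH1 at 1.26 [-0.038] and 1.14 [-0.15]. The p53 pathway gave 11 higher and 6 lower of 27, median 0.16 [-0.91], with XPC at -0.86 [-2.08] and FDXR at 0.99 [-0.27]. MiaPaCa2 carries mutant p53. In lipid synthesis, 14 higher and 3 lower of 24, median 0.44 [-0.82], the LDL receptor went from 116 ± 2.52 to 49.2 ± 4.12 (-1.22 [-2.50]) and FASN from 723 ± 39.2 to 1623 ± 84.7 (1.16 [-0.13]). Among mRNA decay regulators, 7 higher and 4 lower of 23, median 0.14 [-1.12], ZFP36 (tristetraprolin), itself an immediate early gene, rose by 1.53 [0.28] and TOB2 fell with -0.71 [-1.99].

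Long noncoding RNAs gave mixed calls, beside 36.5% higher and 19.8% lower among all genes. LINC-named RNAs gave 16 higher and 14 lower of 65, median -0.14 [-0.81] and antisense-named RNAs 53 higher and 38 lower of 196, median 0.026 [-0.77]. LINC00641 went from 26.3 ± 0.531 to 3.99 ± 1.09 (-2.48 [-3.60]), ZNRD1_AS1 had -2.11 [-3.17] and GAS5_AS1 2.05 [0.99]. Library preparation was stranded per the labels, and whether the counting used strand is not given in the sources used here, so reads of an antisense RNA and of its partner may be mixed. The epithelial and mesenchymal markers gave 7 higher and 0 lower of 14, median 0.48 [-0.58]: KRT8 and KRT18 rose by 1.14 [-0.16] and 0.95 [-0.34] and the mesenchymal factor SNAI1 by 1.48 [0.27], with ZEB1 not called as deposited and called lower on the ERCC scale (0.014 [-1.25]). COL3A1 rose by 1.02 [-0.26]. COL1A2 went from a mean of 50.2 to 92.1 (0.86 [-0.41]) and was not called in the fit, which shares its estimate of spread with the other lines.

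Genes with short transcripts were mostly called higher. Protein-coding genes with a mean of at least 5 were matched by symbol to GENCODE release 29, and 9633 had a longest annotated transcript. Of the 203 with a transcript under 1000 bases, 92.6% were called higher and 0.985% lower, with a median log2 change of 1.03 [-0.23]. Of the 897 with a transcript of at least 8000 bases, 26.2% were called higher and 28.1% lower, with a median of 0.02 [-1.22]. The classes between lay in order, with medians of 0.67, 0.30, 0.11 and 0.07. Without the ribosomal, oxidative phosphorylation and proteasome lists, 161 genes under 1000 bases remained, with a median of 1.00 and 91.3% higher. Level moved in the same way: the median was 0.07 at a DMSO mean of 5 to 20 and 0.96 at 500 or more, where 87.9% were called higher. Within each of 3 ranges of level, transcripts under 2000 bases had the higher median, at 0.49 against -0.05 for those of at least 6000 bases at the lowest level, 0.75 against -0.02 in the middle and 1.06 against 0.27 at a DMSO mean of at least 100. Of the 137 single-exon genes, 43.1% were called higher and 39.4% lower, beside 43.0% and 21.6% of all 9633. These are descriptions over genes, which are not replicates. On the ERCC scale the medians of all length classes were below 0, in the same order.

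**Figure D5:**
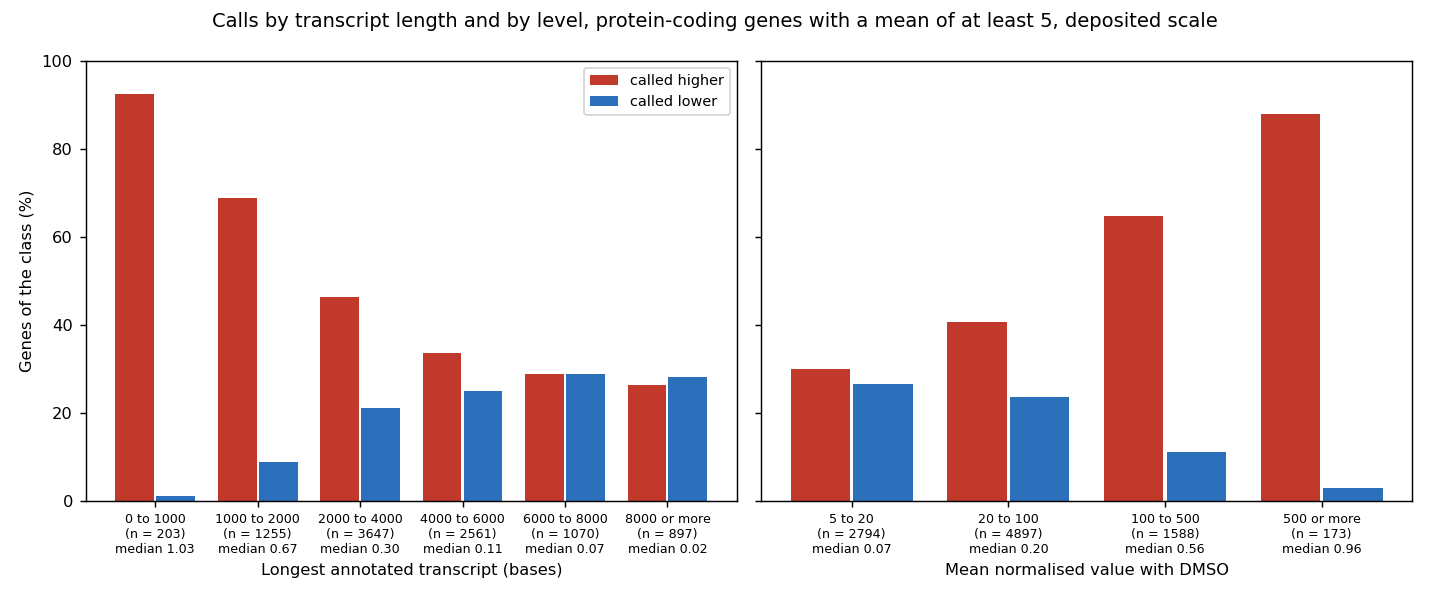
Share of protein-coding genes called higher (red) and lower (blue) on the deposited scale, by length of the longest annotated transcript (left) and by mean normalised value with DMSO (right). The share called higher falls from 92.6% to 26.2% with length and rises from 30.0% to 87.9% with level.

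Genes near 0 with DMSO made up most of those called higher on both scales. Of the 226 genes called higher on the ERCC scale, 210 had a DMSO mean under 5 and 3 a mean of at least 100. Of all 15354 tested genes, 5043 had a DMSO mean under 5. Genes entered the fit at 1 or more in any 3 of the 18 libraries. A gene near 0 with DMSO could thus enter through the THZ1 libraries, and it had little room to fall. Of 5043 tested genes with a DMSO mean under 5, 54 were called higher with a log2 change of at least 2. That limit applies to log2(value + 1), so it leaves out some genes with steep rises near 0. FAM83E had values of 1.09, 0.809 and 1.30 with DMSO and 27.4, 24.8 and 22.6 with THZ1, WDR38 0.971, 1.24 and 0.589 with DMSO and 19.5, 19.3 and 17.4 with THZ1 and BEST1 0.121, 0.431 and 0.177 with DMSO and 16.5, 14.2 and 14.9 with THZ1. All were between 0.121 and 1.30 in the 3 DMSO libraries and between 14.2 and 27.4 in the 3 THZ1 libraries, with log2 changes of 3.65 [2.68], 3.36 [2.43] and 3.71 [2.99]. These genes lie just past the 3′ end of highly expressed ones: FAM83E past RPL18 on the same strand, and WDR38 past RPL35, BEST1 past the ferritin gene FTH1 and FAM166A past the tubulin gene TUBB4B on the opposite strand. Of the 45 induced genes with a GENCODE position, 14 (31.1%) lay wholly or partly within 10 kb past the 3′ end of a gene with a DMSO mean of at least 100. The same held for 227 of the 3553 other low-level genes (6.39%). These others include genes with steep rises, such as SPACA4, from 0.0646 with DMSO to 2.42 with THZ1, at a log2 change of 1.68 [1.23]. By strand, 37.0% of the 138 low-level genes on the opposite strand past such an end were called higher, 21.4% of the 103 on the same strand and 22.5% of the 3357 with no such neighbour. By the measure chosen first, the nearest upstream neighbour on the same strand, 6 of 45 (13.3%) and 8.84% of the others had a neighbour at 100 or more. The share by distance past the 3′ end was added after these genes had been seen. No test was made, and whether the reads come from the named gene or from its neighbour was not tested.

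The response of MiaPaCa2 differed from that of BxPC3 for 13.8% of all tested genes (942 above and 1176 below) and from that of PANC1 for 38.9% (4203 above and 1775 below), by interaction contrasts of the same fit on the deposited scale. On the ERCC scale the genes were 389 above and 822 below for BxPC3 and 246 above and 6450 below for PANC1, and with TMM factors 2396 above and 2705 below for PANC1, so that the balance against PANC1 turned over with the scale. PANC1 DMSO replicate 1 held the fewest reads of the table. Its mitochondrial mRNAs took 1.95% of the reads, beside 4.03% and 4.04% in PANC1 DMSO replicates 2 and 3. Its summed gene value was 1000175, beside 790806 and 773011. Without this library the genes were 2257 above and 3169 below for BxPC3 and 5441 above and 2667 below for PANC1. ZC3H4 had a log2 change of -0.49 [-0.77] in PANC1 against -2.76 [-4.002] in MiaPaCa2. In BxPC3 it was -3.57 [-4.63], so the fall was not particular to MiaPaCa2. GADD45B and FOS had log2 changes 2.70 [1.71] and 2.57 [1.57] higher in MiaPaCa2 than in PANC1. In BxPC3 GADD45B had a log2 change of 2.135 [0.99] and FOS one of 0.043 [-1.14]. The ZNF609 change in MiaPaCa2 minus that in the other line was -1.39 [-1.49] for BxPC3 and -1.80 [-2.77] for PANC1.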

How the data were processed

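RNA of MiaPaCa2 cells was sequenced after 6 h with THZ1 or DMSO, 3 libraries each, as stranded libraries of polyadenylated RNA per the labels' protocols. The aligner STAR and the build hg19 come from the submitters' processing notes. For the counting program, its annotation and its use of strand the answer is not given in the sources used here. A signal per gene and library was deposited by the authors, equal to reads over a divisor that is constant within a library. All values (100% within 0.001) gave whole reads, so that edgeR and DESeq2 could be run on recovered counts as alternatives. Every gene had at least 1 read in every library. The authors' deposited log2 ratio and log2 mean columns, averaged over 3 lines, and a score column deposited by the authors that holds the SD of those ratios, were not used.

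Deposited values were multiplied by 17.7. Genes at 1 or more in at least 3 of 18 libraries (15354) were fitted with limma 3.58.1 under R 4.3.3, using the trend option on log2(value + 1), with 6 group means, 12 residual degrees of freedom and Benjamini-Hochberg adjustment at 0.05. The design had allowed for such values. The script was tested on simulated data. Replicate libraries differed by more than sampling noise. Medians over lists carry no test. A group of 22 rows with names turned into dates stayed unnamed in the fit.

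Named are the 12 highest and 12 lowest changes among called genes past 2-fold whose groups do not overlap and whose mean is 20 or more, up to 3 at each end of each list (mean at least 5), a fixed set around CDK7, the 5 smallest p of each difference between lines and the 10 highest low-level genes. EGR1, TNFRSF10D, the promoter genes and the neighbours were named after their values were seen. Members and lists were chosen with earlier results of these data known. Features came from GENCODE release 29 (GRCh38) and promoters and miRNAs from RefSeq (GRCh38.p14), matched by symbol. Alternatives were other scales, filters, pseudocounts, fits and left-out libraries; the fits on the ERCC scale with a library left out were added after seeing the data. Some genes that these rules name are not reported here.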

Additional observations from a re-analysis of the deposited data

Results flagged for a closer look

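The response of MiaPaCa2 to THZ1 differed from that of another line, by the interaction contrast of the limma fit, for the following genes, the 5 with the smallest p in each contrast among genes at a mean of at least 20 in both lines and responses at least 1 log2 unit apart. Against BxPC3 the differences, MiaPaCa2 minus BxPC3, were -1.41 [-1.51] for the ephrin receptor EPHA2, -1.60 [-1.71] for the actin oxidase MICAL2, -1.39 [-1.48] for the fucosyltransferase POFUT2, -1.39 [-1.49] for ZNF609 and -1.68 [-1.76] for the protease DDI2. In MiaPaCa2 itself EPHA2 had 418 ± 13.7 with DMSO and 340.4 ± 9.86 with THZ1. MICAL2 had 41.6 ± 2.99 with DMSO and 49.2 ± 1.02 with THZ1. The MiaPaCa2 log2 changes were -0.30 [-1.59] for EPHA2, 0.24 [-1.03] for MICAL2 and -0.59 [-1.84] for POFUT2. In BxPC3, in the same order, they were 1.12 [-0.073], 1.84 [0.68] and 0.80 [-0.36]. ZNF609 and DDI2 had -2.15 [-3.40] and -1.44 [-2.70] in MiaPaCa2, and -0.76 [-1.91] and 0.23 [-0.94] in BxPC3. Against PANC1 the differences were 2.70 [1.71] for GADD45B, -2.26 [-3.23] for ZC3H4, -1.89 [-2.86] for the TGF-beta binding protein LTBP2, -1.80 [-2.77] for ZNF609 and 2.57 [1.57] for FOS. LTBP2 had 86.4 ± 1.68 with DMSO and 24.1 ± 1.27 with THZ1 in MiaPaCa2.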

How the results depend on the processing

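Direction and calls depended mainly on the scale. On the ERCC scale 226 genes were called higher and 11223 lower, and with equal sums of all gene values 1456 and 6573, beside 5598 and 3042 as deposited. The other 15 planned settings gave counts within 1.5 times of these. With only the 6 MiaPaCa2 libraries in the fit, 7199 genes were called higher and 3928 lower. Without PANC1 DMSO replicate 1, which shares the estimate of spread, 7089 were called higher and 3869 lower. A gene not called in the main fit, such as CCND1, can therefore be called in these fits. Of the 196 genes named with values, 5 gained a call with only the MiaPaCa2 libraries and 6 without PANC1 DMSO replicate 1. Leaving out 1 MiaPaCa2 library gave 4970 to 5080 higher and 2695 to 2799 lower genes, and on the ERCC scale 167 to 247 and 9462 to 11261. The median over all genes was -0.30 with equal sums, 0.02 with TMM factors and 0.04 with DESeq2 factors. The median of 37 of 54 lists turned sign on the ERCC scale, of 27 with equal sums and of 10 with TMM factors. EdgeR's quasi-likelihood test on the recovered reads called 4170 higher and 4049 lower, and DESeq2 4375 and 3999. The differences from BxPC3 were 389 above on the ERCC scale, and 2257 above and 3169 below without PANC1 DMSO replicate 1. Those from PANC1 were 246 above and 6450 below on the ERCC scale, 2396 and 2705 with TMM factors, and 2667 below without that library. With 1 MiaPaCa2 library left out they ranged from 689 to 780 above and 864 to 973 below for BxPC3 and from 3491 to 3783 above and 1531 to 1653 below for PANC1. The ERCC difference was 0.645 on log2 against the summed gene values.

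Same-numbered THZ1 and DMSO libraries deviated together weakly (correlations 0.140, 0.0674 and 0.0171), and the main fit did not use the numbers as a block. Correlations of deviations from means of 3 cannot settle whether same-numbered cultures were set up together. Each of the 3 THZ1 libraries correlated best with the DMSO library of its own number, while DMSO replicate 3 correlated best with THZ1 replicate 2. With the number as a replicate block, 5837 genes were called higher and 3130 lower.

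Log2 changes that turned sign on the ERCC scale were ALDOA -0.13, B2M -0.29, BBC3 -0.31, BCL2L11 -0.29, BRD2 -0.12, CCNB2 -0.53, CCNH -0.93, CDK4 -0.39, CDK7 -1.25, COL1A2 -0.41, COL3A1 -0.26, COX6B1 -0.038, CPSF1 -0.30, CTNNB1 -0.36, CXCL2 -0.062, CYR61 -0.81, DUSP2 -0.14, FASN -0.13, FDXR -0.27, FGFR3 -0.44, FOS -0.13, FTH1 -0.15, FTL -0.038, GAPDH -0.10, GTF2B -0.46, HDAC1 -0.20, HES1 -0.079, HEXIM1 -0.098, HLA_A -0.27, HYOU1 -0.28, INTS1 -0.47, IRF1 -0.19, KDM1A -0.36, KLF6 -0.61, KRT18 -0.34, KRT8 -0.16, MAP2K2 -0.13, MAPK3 -0.29, MCL1 -1.26, MCM2 -0.45, MCM7 -0.34, MED24 -0.49, MICAL2 -1.03, MNAT1 -0.68, MT_CO3 -0.022, MYC -1.10, NFKB1 -0.74, NUDT21 -0.35, PABPN1 -0.30, PDIA6 -0.32, POLR2F -0.16, POLR2J -0.15, PTTG1 -0.48, RPL29 -0.011, SHMT2 -0.29, SNRPD2 -0.14, SNRPG -0.17, SPRY4 -0.96, SRF -0.94, SRSF7 -0.43, SSRP1 -0.20, STAT3 -0.62, SUPT5H -0.34, TAF10 -0.23, TAF9B -0.49, TCF7 -0.23, TRA2B -0.097, ZEB1 -1.25, ZNF219 -0.29, ZNF358 -0.17, ZNF428 -0.25. With equal sums they were CCNH -0.30, CDK7 -0.62, CYR61 -0.16, MCL1 -0.61, MICAL2 -0.40, MNAT1 -0.062, MYC -0.46, NFKB1 -0.10, SPRY4 -0.31, SRF -0.30, ZEB1 -0.62. With TMM factors they were CDK7 -0.20, MCL1 -0.18, MYC -0.026, ZEB1 -0.20. With DESeq2 factors they were CDK7 -0.18, MCL1 -0.16, MYC -0.0071, ZEB1 -0.18. With voom on recovered reads they were CDK7 -0.20, MCL1 -0.18, MYC -0.027, ZEB1 -0.20. With edgeR on recovered reads they were CDK7 -0.20, MCL1 -0.18, MYC -0.026, ZEB1 -0.20. With DESeq2 on recovered reads they were CDK7 -0.18, MCL1 -0.16, MYC -0.0072, ZEB1 -0.18. With 1 library left out, CDK7 ranged from -0.018 to 0.048 and MCL1 ranged from -0.019 to 0.066 and ZEB1 ranged from -0.041 to 0.11. Of the 196 genes named with values, 196 kept direction and call without a filter and 195 under the block; the causes of the other changes were not tested.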
